A study of Rattus norvegicus with 24 samples.

Results

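Arc, Homer1, Npas4, Nptx2, Sik1 and Ptgs2 are 6 genes whose transcription in neurons follows synaptic activity and whose products change the synapse or its signalling. Members were all non-control probes whose gene name in the array files, or current rat symbol, was one of these 6, out of 35537 names on the array. This gave 9 probes out of 41012: 2 each for Homer1, Nptx2 and Ptgs2, and 1 each for Arc, Npas4 and Sik1. Sik1 stands in the files under its older name Snf1lk. In all, 7 of the 9 probes, from 5 of the 6 genes, passed the limit on dim probes (clear of background in both dyes on 12 or more of 24 arrays) and entered the tests. The probes that did not were that of Npas4, well above background on 3 of 24 arrays, and Ptgs2 probe 2, on 0 of 24.

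The tissue came from 9 male Wistar rats aged 10 weeks. Of these, 3 received saline and 6 received MK-801, an open-channel blocker of NMDA-type glutamate receptors, in 2 dose groups of 0.16 mg per kg (high dose) and 0.08 mg per kg (low dose), and brains were taken 40 min after the intraperitoneal injection. Cerebral cortex, hippocampus, amygdala, hypothalamus, ventral striatum and midbrain were dissected, and each two-colour array set MK-801 RNA against saline RNA of a region, with 2 arrays of exchanged dyes (a dye swap) for each of the 12 combinations of region and dose. Which animals an array represents, and whether their RNA was pooled, is not given in the labels. Each value below is a log2 ratio of MK-801 to saline, the mean of a dye swap, and a mean ± SD is taken over n = 6 regions of the same 9 rats unless another n is given. The p values from limma are adjusted over all probes by Benjamini-Hochberg, with 0.05 as the threshold for a call. They measure the spread between regions, not between rats, and the 3 saline rats served as controls for both doses. In bulk tissue, fewer cells of a type and less RNA per cell cannot be told apart.

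When glutamate and calcium signals reach the nucleus, CREB, SRF and MEF2 factors switch on a set of genes within minutes, without new protein synthesis. Npas4 is a transcription factor of that set. Arc acts at the synapse itself, where it drives removal of AMPA receptors from the membrane. Homer1 makes long scaffold proteins that tie metabotropic glutamate receptors to the postsynaptic density, and a short form, induced by activity, that loosens this scaffold. Nptx2, also called Narp, is a secreted pentraxin that clusters AMPA receptors. Sik1 is a salt-inducible kinase that is induced through CREB and then holds back the CREB coactivators of the CRTC family. Ptgs2 is cyclooxygenase-2, the inducible enzyme of prostaglandin synthesis, which forebrain excitatory neurons express in an activity-dependent way.

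The probes that the results turn on are shown by the first 30 of their 60 bases, as the array files give them, 5′ to 3′, to show which stretch of each transcript was read.
Sik1 probe: actatgatgggattgtttcatttctcatgt
Homer1 probe 1: gcctgtgatattgaagagggttcttttcat
Homer1 probe 2: aacagaagctcattgacaaactaaagtgac
Arc probe: ctggagatctcaagagtgtggctatcccct
The Sik1 probe lies at chr20:10280491-10280550 and the Arc probe at chr7:112806255-112806314, both on the minus strand of rn3, the build in the array files. Nptx2 probe 1 lies at chr12:10388840-10388899 and probe 2 at chr12:10389782-10389841, and Ptgs2 probe 1 at chr13:64448537-64448596. The files give no position for the Homer1 probes, and exon or UTR annotation on rn3 was not used here. Homer1 probe 1 was designed to the RefSeq mRNA of the gene, and probe 2 to the database record of the Homer cDNA with a GLGF domain. Which form of the transcript each probe reads was not tested.

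In the saline RNA, 5 of 5 striatal markers were highest in the ventral striatum, 3 of 3 monoamine neuron markers in the midbrain and 3 of 3 markers of hippocampus and cortex in the hippocampus. Of 5 hypothalamic markers, 2 were highest in the hypothalamus, and 6 of 6 meningeal and 4 of 4 choroid plexus markers were highest in the amygdala. Some of these lists differed between MK-801 and saline RNA within a region. The summed level of the choroid plexus markers differed by -2.30 and -2.01 log2 units in the hippocampus at the high and low dose, by -1.87 in the hypothalamus and 1.33 in the amygdala at the high dose. That of the hypothalamic markers differed by -1.47 and -1.10 in the hypothalamus at the high and low dose, and by -0.76 and -0.64 in the amygdala. That of the meningeal markers differed by 0.08 in the cerebral cortex at the high dose and by -1.0026 at the low dose. In the same order it differed by 0.71 and -0.40 in the midbrain and by -0.68 and -0.58 in the hippocampus. The meningeal level was above saline in 3 of 6 regions at the high dose and in 2 of 6 at the low dose. The part of these differences in the regional and dose results below was not tested.

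Sik1 was the member that rose. Over both doses its log2 ratio was 0.38 ± 0.30 (SD, n = 6), above 0 in 6 of 6 regions (limma adjusted p = 0.0318), where 2.46% of all 27267 probes were called. At the high dose the values were 1.13 in the cerebral cortex, 0.81 in the amygdala, 0.63 in the hippocampus, 0.44 in the hypothalamus, 0.32 in the ventral striatum and 0.20 in the midbrain. Every region lay above 0, and Sik1 RNA was 2.18-fold the saline level in the cortex against 1.15-fold in the midbrain. The mean was 0.59 ± 0.34 (SD, n = 6) (limma adjusted p = 0.00597), where 2.01% of probes were called. On single arrays at this dose the log2 ratio ran from -0.10 over a median of 0.63 to 1.30, and 10 of 12 arrays were above 0.

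The Sik1 values at the low dose were 0.57 in the cerebral cortex, 0.40 in the amygdala, 0.10 in the hippocampus, 0.09 in the hypothalamus, -0.05 in the ventral striatum and -0.05 in the midbrain. The cortex and amygdala again stood highest, and 4 of 6 regions were above 0. The mean of 0.18 ± 0.25 (SD, n = 6) did not pass (limma adjusted p = 0.288), where 2.42% of probes were called at this dose. It was 0.33 without array number 3 (adjusted p = 0.00112), 0.02 without number 4 (0.879) and 0.10 without the cortex (0.576). The difference between doses was tested on its own. Sik1 was higher at the high dose in 6 of 6 regions, by 0.25 in the midbrain to 0.56 in the cortex, with a mean difference of 0.41 ± 0.12 on the log2 scale (SD, n = 6, limma adjusted p = 0.00011), where 1.44% of probes were called. With single arrays and the array number as a replicate block the adjusted p was 0.0791, which ends this call. That fit holds no region term, so the doses are not paired within a region and the spread between regions enters its error. In every test it also counts the 2 arrays of a dye swap as separate values. The passes with this block given below therefore have p values that are too small. The regions also differed from each other. With dose as a term, the regional means of Sik1 spanned 0.78, from 0.07 in the midbrain to 0.85 in the cerebral cortex (limma F test, adjusted p = 0.000445), where 1.18% of 24618 probes were called. Both doses of a region were set against the same saline rats, so this p is too small. The regional call of Sik1 missed the threshold in 2 of 16 other settings. The titles give the arrays of a region a shared number, which may mark a slide, and the saline RNA of a region may be shared as well. Region, that number and the saline RNA of a region cannot be told apart.

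**Figure D1:**
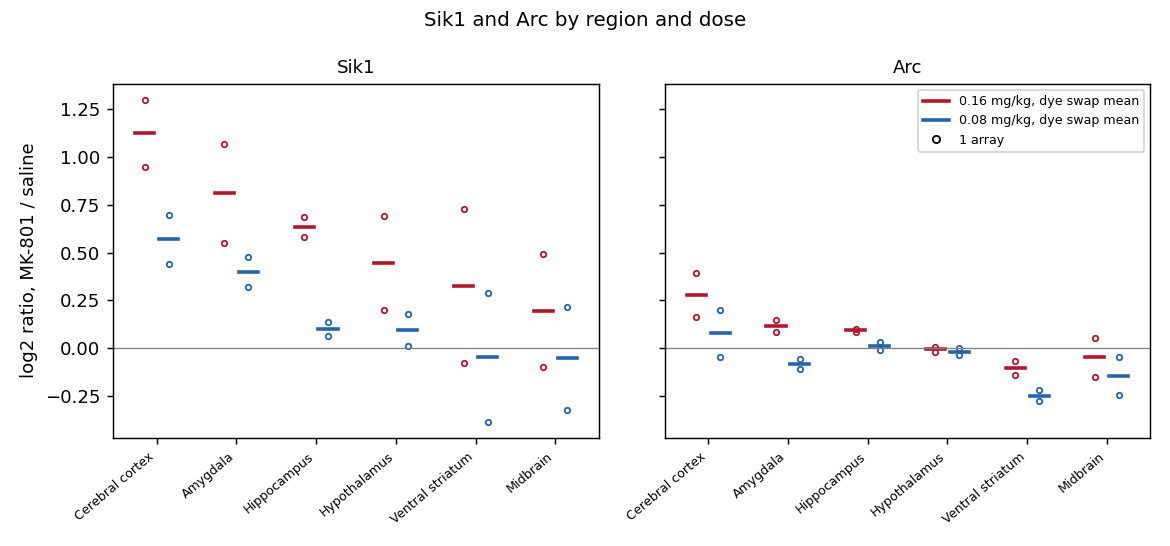
Log2 ratio of MK-801 to saline (vertical axis) for Sik1 and Arc in the 6 regions (horizontal axis). Each circle is 1 array and each bar the mean of a dye swap, red at 0.16 and blue at 0.08 mg per kg; for Sik1 the red bar stands above the blue one in 6 of 6 regions, and for Arc the bars lie between -0.25 and 0.28.

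Sik1 arrays with MK-801 in Cy5 read lower than those with the dyes exchanged in 12 of 12 dye swaps, with a dye effect of -0.20 on the log2 scale, which cancels in a dye swap mean. The call over both doses ended without the amygdala (adjusted p = 0.0958), the hippocampus (0.0857) or the hypothalamus (0.0609), and the calls over both doses and at the high dose ended with the scanner's own ratios (0.117 and 0.0601) and with a robust, intensity-dependent prior (0.237 and 0.155). The call over both doses also ended without array number 2 (0.0534) and within the first scan day (0.414). In all, Sik1 missed the threshold in 10 of 19 other settings over both doses and in 6 of 17 at the high dose. At the high dose the ratio was 0.83 without array number 1 and 0.35 without number 2 (0.0338). Without array number 1 the dose difference was 0.65, without number 2 it was 0.17 (adjusted p = 0.0731), and without number 3 it was 0.26; each of these leaves 1 dose with a single dye orientation. In all, the dose difference missed the threshold in 3 of 19 other settings. Within the 3 scan days the high-dose ratio was 0.73 (cortex and ventral striatum), 0.50 (midbrain and amygdala) and 0.54 (hippocampus and hypothalamus), and the dose difference was 0.46, 0.33 and 0.44. Markers of red blood cells moved with dose as well. Of 3 measured markers, 3 were called higher and 0 lower at the high than at the low dose, with Hbb at a difference of 0.88 (limma adjusted p = 2.371e-05) and Alas2 at 0.61 (8.976e-07). Of all probes, 0.833% were called higher and 0.612% lower between doses. The summed level of these markers was above saline in 6 of 6 regions at the high dose, by 0.09 to 0.50 log2 units, and below it in 6 of 6 at the low dose, by -0.80 to -0.17. The summed saline level ran from 10.74 to 12.12 on the high-dose arrays and from 10.71 to 11.57 on the low-dose arrays. The third marker, Slc4a1, was dim, with saline levels of 6.91 to 7.11 over the regions, where the untested Npas4 probe reached 6.51. Of 6 microglial markers, 3 (P2ry12, C1qa and C1qb) were called higher than saline at the low dose, as were 1.19% of all probes. Cx3cr1 lay below saline there, at -0.04, and was not called. Between doses 2 (P2ry12 and C1qa) were called lower at the high than at the low dose, against the 0.612% of all probes. The summed level of the 6 microglial markers was above saline in 6 of 6 regions at the low dose, by 0.07 to 0.17 log2 units, and in 3 of 6 at the high dose. It ran in saline from 14.52 to 15.15 on the high-dose and from 14.37 to 15.10 on the low-dose arrays. The part of both lists in the dose difference of Sik1 was not tested.

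In saline rats, Sik1 was highest in the ventral striatum, with a normalized log2 intensity of 12.73 ± 0.34 (SD, 4 arrays). The cerebral cortex followed at 12.04 ± 0.15, the amygdala at 11.87 ± 0.29, the midbrain at 11.46 ± 0.30 and the hypothalamus at 11.40 ± 0.18, and the hippocampus was lowest at 10.34 ± 0.22. The midbrain and hypothalamus were closer to each other than the spread of their arrays, and the cortex lay within the SD of the amygdala but not of its own arrays. The saline order is not the order of the ratios: the ventral striatum had the highest Sik1 level and the fifth highest ratio. Without scaling between arrays the regional span of the Sik1 level was 2.78 in place of 2.38 log2 units. Of the 7 tested probes, 4 kept their highest region without this scaling and 5 without array number 1, and Sik1 and Arc were among them both times.

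The promoter of Sik1 is shown because its best-known inducer, CREB, binds a short motif, the cAMP response element (CRE, TGACGTCA, read on both strands), or its core TGACG, which lies within it. The sequence is the minus strand of chr20:9958647-9958896, build GRCr8 in the RefSeq table, the 250 bases before the gene's start, with core matches in capitals.
Sik1 promoter: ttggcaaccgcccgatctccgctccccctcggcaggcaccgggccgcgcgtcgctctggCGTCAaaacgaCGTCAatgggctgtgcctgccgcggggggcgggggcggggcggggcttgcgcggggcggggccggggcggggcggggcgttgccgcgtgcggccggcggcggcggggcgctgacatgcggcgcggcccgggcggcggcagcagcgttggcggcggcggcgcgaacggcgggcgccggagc
It holds 2 core matches, starting 191 and 180 bases before the start, and 0 full CREs. Of the 33469 RefSeq promoters of this length, 18.2% hold at least 1 core and 1.59% a full CRE. The same window of Nptx2 holds 1 core, 90 bases before the start, and those of Homer1, Npas4 and Ptgs2 hold 0. A match is a match of letters only.

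Arc gave no call. At the high dose its log2 ratio was 0.28 in the cerebral cortex, 0.11 in the amygdala, 0.09 in the hippocampus, -0.01 in the hypothalamus, -0.05 in the midbrain and -0.10 in the ventral striatum. At the low dose it was 0.08 in the cortex, 0.01 in the hippocampus, -0.02 in the hypothalamus, -0.08 in the amygdala, -0.15 in the midbrain and -0.25 in the ventral striatum. The cortex was highest and the ventral striatum lowest at both doses. The mean over both doses was -0.01 ± 0.12 (SD, n = 6, limma adjusted p = 0.965), at the high dose 0.05 ± 0.14 (0.688) and at the low dose -0.07 ± 0.12 (0.508). Arc was higher at the high than at the low dose in 6 of 6 regions, by 0.12 ± 0.07, and this did not pass (limma adjusted p = 0.138) except without array number 1 (0.047). The regional means spanned 0.35 (limma F test, adjusted p = 0.0614), which also missed the threshold, but passed with a robust, intensity-dependent prior (0.00791) and with the replicate block (0.0386). The sign of the mean over both doses turned without the midbrain (0.011) or the ventral striatum (0.03).

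The saline level of Arc differed far more between regions than its ratio did. It was 13.96 ± 0.15 (SD, 4 arrays) in the cerebral cortex, 13.09 ± 0.16 in the ventral striatum, 12.72 ± 0.20 in the hippocampus and 12.46 ± 0.12 in the amygdala, then 10.48 ± 0.10 in the hypothalamus and 9.45 ± 0.07 in the midbrain. The span was 4.51 log2 units, and each step in this order was larger than the SD of either region.

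The Homer1 probes are given separately. Probe 2 was lower in MK-801 rats, with -0.27 ± 0.20 over both doses (SD, n = 6, limma adjusted p = 0.0272) and 5 of 6 regions below 0. At the low dose its log2 ratio was -0.51 in the ventral striatum, -0.50 in the cerebral cortex, -0.39 in the amygdala, -0.23 in the hippocampus, -0.19 in the hypothalamus and -0.06 in the midbrain. All 6 regions were below 0, as were 12 of 12 arrays, counting the midbrain, where the probe did not clear background at this dose. The mean was -0.31 ± 0.18 (limma adjusted p = 0.00605). At the high dose the values were -0.49 in the cortex, -0.43 in the ventral striatum, -0.30 in the amygdala, -0.14 in the hippocampus, -0.13 in the hypothalamus and 0.09 in the midbrain. The mean of -0.23 ± 0.21 did not pass (limma adjusted p = 0.0933) except with the replicate block (0.0228), within the first scan day, without array number 2 or without the midbrain. The doses differed by 0.08, which did not pass either (limma adjusted p = 0.369).

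The fall was unequal between regions. Over both doses probe 2 stood at -0.49 in the cerebral cortex, where RNA was 0.713-fold the saline level at the high dose, and at 0.01 in the midbrain, a span of 0.51 (limma F test, adjusted p = 0.00133). The midbrain was also where probe 2 was dimmest: both colours were well above background on 1 of 2 arrays at the high dose and 0 of 2 at the low dose there, so the -0.06 of the midbrain at the low dose enters the fit but is not a measured ratio. Without the midbrain the mean over both doses was -0.33 (limma adjusted p = 0.00306), that at the high dose passed at -0.30 (0.00868), and the regional span was 0.33 (0.0183). That span ran to the hypothalamus, the next dimmest region, with a saline level of 6.92. The regional call of probe 2 missed the threshold in 3 of 15 other settings. The call over both doses ended without the amygdala (0.0777), the ventral striatum (0.0951), the cortex (0.0892) or the hippocampus (0.0549), and with a robust, intensity-dependent prior (0.109). With the scanner's own ratios the low-dose value was -0.51 in place of -0.31. Within the scan days the ratio over both doses was -0.48 (cortex and ventral striatum), -0.16 (midbrain and amygdala) and -0.17 (hippocampus and hypothalamus). Probe 2 had a dye effect of -0.14, with the same sign in 12 of 12 dye swaps, and the high-dose ratio was -0.40 without array number 2 (adjusted p = 0.00444) but -0.07 without number 1 (0.338). The low-dose ratio was -0.19 without number 3 (0.00689), and -0.43 without number 4 (0.00101).

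Homer1 probe 1, with 10 spots on each array where probe 2 has 1, was nearly level. Its log2 ratio was -0.06 ± 0.04 over both doses (SD, n = 6, limma adjusted p = 0.215), -0.08 at the high dose (0.212) and -0.04 at the low dose (0.597). The first of these passed with the replicate block (0.0218) and without array number 1 (0.0362). Over both doses the regional means lay between -0.09 in the cortex and -0.0036 in the hypothalamus, a span of 0.08 (limma F test, adjusted p = 0.738). The difference between the probes was not tested. In saline rats probe 1 was highest in the ventral striatum (12.13 ± 0.18, SD, 4 arrays) and cerebral cortex (12.06 ± 0.14), which did not differ beyond their spread and changed places without scaling between arrays or without array number 1, followed by the amygdala (11.02 ± 0.14) and hippocampus (10.97 ± 0.10), again within their spread, the hypothalamus (9.65 ± 0.10) and the midbrain (9.39 ± 0.04). Probe 2 was highest in the cortex (11.42 ± 0.63), then in the ventral striatum (10.23 ± 0.09) and hippocampus (10.22 ± 0.20), level with each other, the amygdala (9.69 ± 0.13), the hypothalamus (6.92 ± 0.09) and the midbrain (6.59 ± 0.12).

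**Figure D2:**
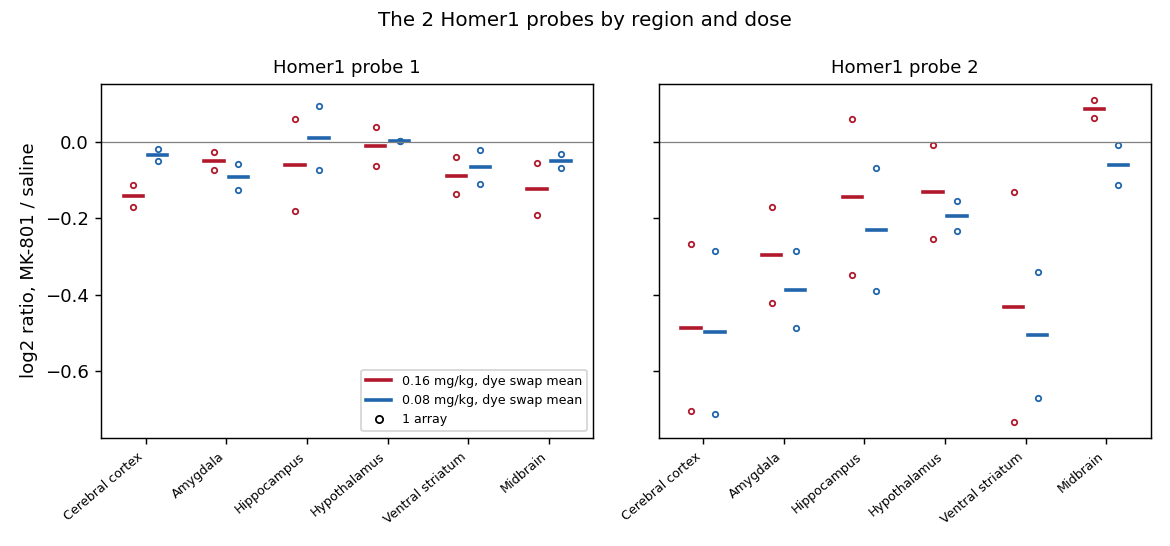
Log2 ratio of MK-801 to saline (vertical axis) for the 2 Homer1 probes in the 6 regions (horizontal axis), with circles for arrays and bars for dye swap means at 0.16 (red) and 0.08 mg per kg (blue). Bars of probe 1 lie between -0.14 and 0.01, and those of probe 2 between -0.51 and 0.09.

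Nptx2 gave no call in the tests as set out above. Probe 1 stood at -0.38 in the midbrain, -0.32 in the ventral striatum, -0.14 in the amygdala, -0.04 in the cerebral cortex, 0.02 in the hypothalamus and 0.09 in the hippocampus at the high dose. At the low dose it stood at -0.26 in the ventral striatum, -0.16 in the amygdala, -0.12 in the cortex, -0.05 in both the midbrain and the hypothalamus, and 0.13 in the hippocampus. The ventral striatum was low and the hippocampus above 0 at both doses, whereas the midbrain was low at the high dose. The mean over both doses was -0.11 ± 0.15 (SD, n = 6, limma adjusted p = 0.297, or 0.0361 with the replicate block), and the regional span of 0.41 did not pass (limma F test, adjusted p = 0.105), nor did it in 12 of 16 other settings, but did with the replicate block (0.0171), without the midbrain (0.0301), with a robust, intensity-dependent prior (0.0414) and, at the threshold, without array number 3. Probe 2 gave -0.03 ± 0.11 over both doses (limma adjusted p = 0.775). It passed without array number 2 (-0.14, adjusted p = 0.0161) or number 4 (-0.18, 0.0023). It was highest in the hippocampus (0.12) and lowest in the ventral striatum (-0.15), and its dye effect of -0.26, with the same sign in 12 of 12 dye swaps, exceeded those values. In saline rats probe 1 was highest in the hypothalamus (11.97 ± 0.11, SD, 4 arrays), then the cortex (11.84 ± 0.31), amygdala (11.65 ± 0.13), hippocampus (11.36 ± 0.57), ventral striatum (10.57 ± 0.22) and midbrain (9.41 ± 0.13). Without scaling between arrays, or without array number 1, the cortex was highest. The first 4 were within the spread of a neighbour, and the midbrain was below the others.

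Ptgs2 probe 1 had dye swap means below 0 in the cerebral cortex, amygdala, hippocampus and ventral striatum and near 0 elsewhere. The high-dose values were -0.32 in the cortex, -0.27 in the amygdala, -0.18 in the hippocampus, -0.15 in the ventral striatum, -0.03 in the midbrain and 0.01 in the hypothalamus. The low-dose values were -0.24, -0.17, -0.17, -0.14, 0.01 and 0.04 in the same regions. This order was that of its saline level at both doses, with the amygdala and hippocampus level at the low dose. The saline level was 10.45 ± 0.14 (SD, 4 arrays) in the cortex, 9.65 ± 0.26 in the amygdala, 9.29 ± 0.27 in the hippocampus, 8.55 ± 0.19 in the ventral striatum, 7.20 ± 0.08 in the midbrain and 6.76 ± 0.07 in the hypothalamus. The part of signal level in the regional ratios was not tested. In the hypothalamus both dyes cleared background on 0 of 2 high-dose arrays, so the 0.01 there enters the fit but is not a measured ratio. The mean did not pass over both doses (-0.13 ± 0.12, SD, n = 6, limma adjusted p = 0.102), at the high dose (-0.16 ± 0.13, 0.0916) or at the low dose (-0.11 ± 0.11, 0.193). It passed over both doses without the hypothalamus, at -0.17 (0.0426), and with the replicate block (0.000916, and 0.0216 at the high dose). The replicate block counts the 2 arrays of a dye swap as separate values, so its p values here are too small. The probe had a dye effect of 0.10, with the same sign in 12 of 12 dye swaps, and the arrays of the ventral striatum disagreed in sign, with 0.0091 and -0.30 at the high dose and 0.07 and -0.36 at the low dose. Without array number 1 the high-dose mean was -0.24 (0.00664) and without number 2 it was -0.07 (0.251), and at the low dose it was -0.22 without number 3 (0.00472) and -0.0068 without number 4 (0.919). Over both doses it passed at -0.18 without number 1 (0.0167) and at -0.19 without number 3 (0.00966), and was -0.08 without number 4. The regional span of 0.30 passed (limma F test, adjusted p = 0.0418) but missed the threshold in 11 of 16 other settings. Those included leaving out the hypothalamus (0.143), cerebral cortex (0.0919), midbrain (0.0851) or ventral striatum (0.0604).

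**Figure D3:**
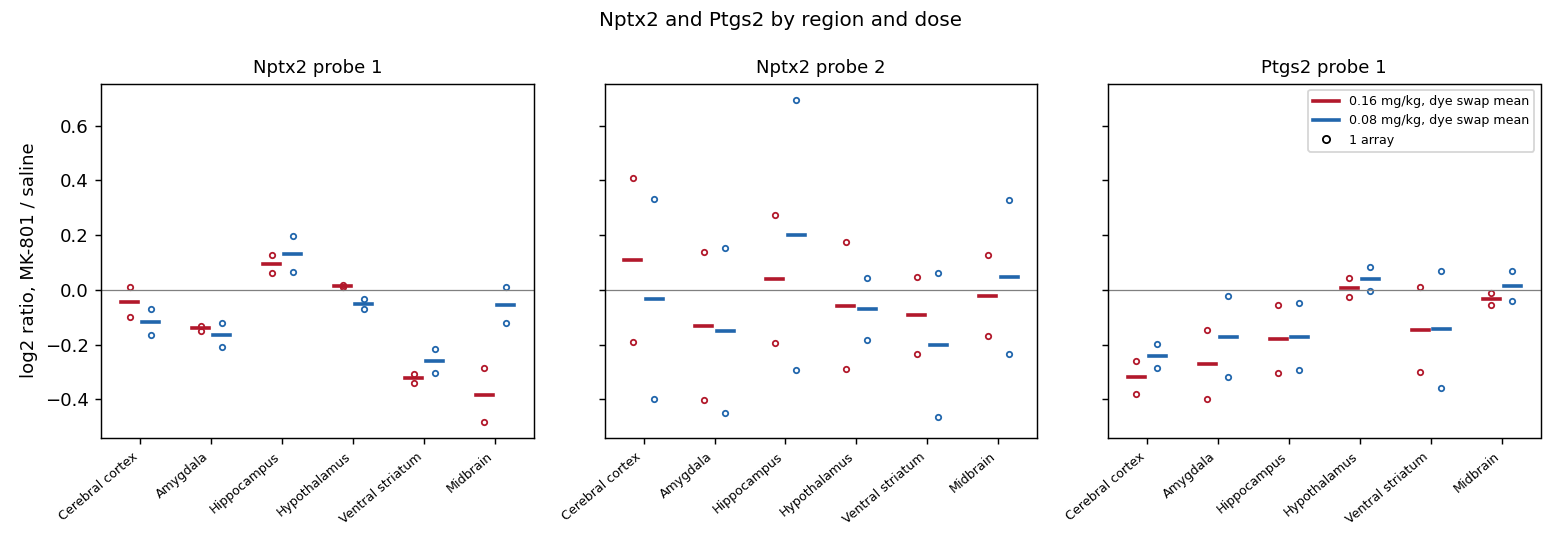
Log2 ratio of MK-801 to saline (vertical axis) for the 2 Nptx2 probes and Ptgs2 probe 1 in the 6 regions (horizontal axis), with circles for arrays and bars for dye swap means at 0.16 (red) and 0.08 mg per kg (blue). Ptgs2 probe 1 is lowest in the cerebral cortex (-0.32 at the high dose), and Nptx2 probe 1 lowest in the midbrain at the high dose (-0.38).

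Npas4 and Ptgs2 probe 2 were too dim to test. Npas4 had a saline intensity between 6.18 in the midbrain and 6.51 in the cerebral cortex, with SDs between arrays of 0.05 to 0.23, and Ptgs2 probe 2 one between 6.06 and 6.43. No fold is given for either.

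**Figure D4:**
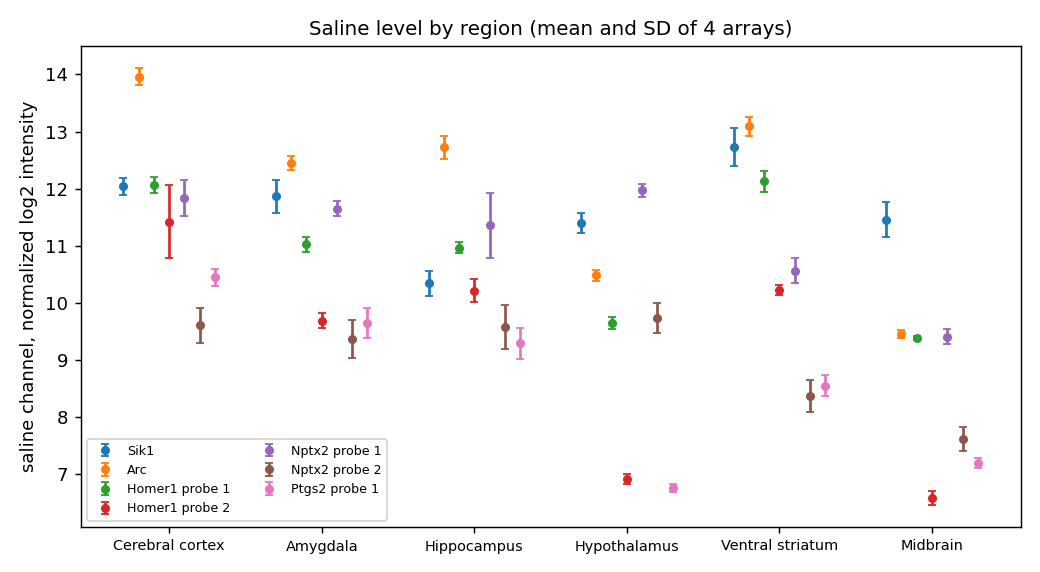
Normalized log2 intensity of the saline channel (vertical axis) for the 7 tested probes in the 6 regions (horizontal axis), as mean and SD of 4 arrays. Arc, Homer1 probe 2 and Ptgs2 probe 1 are low in the hypothalamus and midbrain, and Sik1 is highest in the ventral striatum; levels of different probes are not comparable with each other.

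Of other activity-regulated genes, 34 were tested over both doses, and 7 rose and 4 fell, where 1.29% of all probes were called higher and 1.17% lower, with a median of 0.03 beside -0.00012 over all probes. The 4 named by size were Btg2, an antiproliferative gene (0.98 ± 0.58, SD, n = 6 regions, limma adjusted p = 0.005675), the transcription factor Klf4 (0.88 ± 0.48, n = 5, 0.005814), the MAP kinase phosphatase Dusp1 (0.84 ± 0.31, n = 6, 0.00024) and Ier2 (0.61 ± 0.39, n = 5, 0.01629). The 4 that fell were the transcription factors Egr2 (-0.31, 0.00194), Egr1 (-0.17, 0.04682) and Nr4a3 (-0.17, 0.04953) and the neurotrophin Bdnf (-0.15, 0.00487), named after their values were seen. Sik1 thus lay with the genes that rose and Homer1 probe 2 with those that fell. At the high dose 10 of 35 rose and 1, Bdnf, fell (1.05% and 0.952% of all probes). At the low dose 3 of 34 rose (Btg2, Dusp1 and Gadd45g) and 5 fell (Egr1, Egr2, Egr4, Nr4a3 and Bdnf), against 1.19% and 1.23%. High minus low, 12 of 34 were higher and 0 lower, against 0.833% and 0.612%, with a median of 0.12 beside -0.0047, and 20 had an unadjusted limma p under 0.05, as had 10.8% of all probes; both doses share control samples.

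Few of the partners and pathway genes of the members were called. With lists of this size the share of calls over all probes also gives few or none. That share was 2.46% over both doses, 2.01% at the high dose, 2.42% at the low dose, 1.44% between doses and 1.18% between regions. The p values between regions are too small, as for Sik1. An unadjusted limma p under 0.05 was found for 13.5% of all probes over both doses, 12% at the high dose, 12.9% at the low dose and 10.8% between doses. Of 18 synaptic partners of Arc and Homer1, limma called 0 over both doses (3 at an unadjusted p under 0.05), 0 at the high dose (1) and 0 at the low dose (4). Between doses it called 1, the kinase Camk2a, which was lower at the high dose by -0.20 ± 0.10 (SD, n = 6 regions, adjusted p = 0.01519). Of 6 pentraxins and AMPA receptor subunits it called 0 over both doses (2 at an unadjusted p under 0.05), and Nptx1 (0.04262) and the pentraxin receptor Nptxr (0.04143) differed between regions. Of 15 measured genes of the SIK, CRTC and CREB pathway it called 0 over both doses (3) and 0 between doses (0), and Mef2a differed between regions (0.02543). Of 11 genes of prostaglandin synthesis and its receptors it called 0 over both doses (2). The medians of these 4 lists over both doses were 0.0011, -0.03, -0.02 and 0.02.

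Genes most like the brightest tested probe of each member were sought among 256 probes with an SD of at least 0.2 over the 12 values of region and dose, which share rats and may share saline RNA and slides. For Sik1 they were Dusp1 (r = 0.91), Ppp1r15a (0.90) and Depp1 (0.90). For Arc they were Sik1 itself (0.88), Ppp1r15a (0.81) and Hspa1a (0.78), so Arc, with far smaller ratios, had a similar order of regions and doses to Sik1. For Nptx2 probe 1 they were Mlf1 (0.79), Cyp11b1 (0.75) and Foxp3 (0.66), for Ptgs2 probe 1 Sox18 (0.81), Ucn (0.67) and Apobec1 (0.60), and for Homer1 probe 1 Trappc11 (0.64), Rec114 (0.60) and Tnnt1 (0.57). Homer1 probe 1 varied little over the 12 values (SD 0.05). For Homer1 probe 2, which the rule did not take and which was added after its values were seen, they were Ucn (0.74), Slc6a4 (0.67) and Col18a1 (0.65).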

How the data were processed

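Per the file headers, Agilent Feature Extraction 9.5.3.1 wrote the deposited scanner files, which give a mean and a background intensity per colour for 45018 spots, with flags and a log10 ratio of Cy5 to Cy3. The deposited value table holds the log10 ratio of processed signals (equal to the scanner signals within 1e-6 on 19 of 24 arrays and within 0.00413 on the others). The authors' deposited table is unturned for dye swaps and its centring is unknown; it served as an alternative.

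Signals were corrected by normexp (offset 50) and loess within each array (limma 3.58.1, R 4.3.3); control spots and spots with outlier flags were left out. Spots were averaged, ratios turned to MK-801 over saline and dye swaps averaged. Of 41012 probes, 27690 were kept, those clear of background in both dyes on 12 or more of 24 arrays. Fits (lmFit, eBayes) used 6 regional values (at least 4 present), and the region test 12. Saline levels came from loess and Aquantile scaling and were not tested. Probes were named through RefSeq (GRCr8): 10735 by accession, 5506 by symbol and 3718 by synonym; 21053 kept the file's name.

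Between 55.2% and 78.5% of probes were well above background on an array, with a median signal over background of 1.82 to 3.10 (Cy3) or 3.23 to 5.77 (Cy5); the number of arrays limits the precision. With ratios turned to MK-801 over saline, the 2 arrays of a dye swap correlated at r = -0.51 to -0.13. On this scale arrays that agree would correlate positively, so over all probes the single arrays of a dye swap did not agree. Deviations of same-numbered arrays correlated at 0.52 to 0.75 in 60 pairs. Per the labels the number gives the dye orientation and dose; whether it also marks shared RNA or animals is not given. The replicate block uses this number on single arrays. It counts the 2 arrays of a dye swap as separate values, so its p values against saline and between regions are too small. Between doses it holds no region term, so the doses are not paired within a region. Scan days came from the headers. The fits were tested on simulated data. Members and lists were chosen with earlier results of these data known, and the named list genes were those called, at most 4 by size; like genes were the 3 with the highest r.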

Additional observations from a re-analysis of the deposited data

Results flagged for a closer look

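For Nptx2 probe 1 the high minus low difference was -0.33 in the midbrain, far from the other 5 regions, of which the nearest was the ventral striatum at -0.06. Chance sets apart about 1 in 20 such groups.

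The difference between doses was tested for Sik1, with an adjusted p of 0.00011 from limma for a difference of 0.41. It missed the threshold in 3 of 19 other settings. Among them were the replicate block (0.0791), which does not pair the doses within a region, and the fit without array number 2 (0.0731, difference 0.17). The difference between regions was tested as well, with adjusted p values of 0.000445 for Sik1 (span 0.78), 0.00133 for Homer1 probe 2 (span 0.51) and 0.0418 for Ptgs2 probe 1 (span 0.30), all from limma. In the same order, these regional calls missed the threshold in 2 of 16, 3 of 15 and 11 of 16 other settings.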

How the results depend on the processing

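Over both doses 671 probes were called, against 352 with the scanner's own ratios, 346 with the deposited table, 430 without the ventral striatum, 401 without the cerebral cortex, 1795 with single arrays and the replicate block, 122, 73 and 84 within scan days 1, 2 and 3, and 4240 to 5711 without 1 replicate number. At the high dose 552 were called, against 282, 285, 347 and 320 in the first 4 of these settings, 345 without the amygdala, 145, 113 and 87 within the days, and 7603 to 8875 without a replicate. At the low dose 667 were called, against 360, 351, 426 without the ventral striatum, 97, 79 and 76, and 8499 to 9649. High minus low 394 were called, against 197, 195, 260 without the ventral striatum, 57, 104 and 52, and 6198 to 8776. Between regions 291 were called, against 17, 14, 175 with no filter on dim probes, 988 with an intensity trend and robust prior, 155 without the ventral striatum, 130 without the hypothalamus, 482 with the replicate block, and 52 to 283. Leaving out a replicate number leaves a single dye orientation at 1 dose, so the dye effect enters; the cause of the other changes was not tested.

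The replicate block fits single arrays rather than dye swap means. Between doses it does not pair the doses within a region, and there it ended the Sik1 call (adjusted p = 0.0791 from limma). The 2 arrays of a dye swap count as separate values in it, so the p values of its passes are too small. It passed Ptgs2 probe 1 over both doses (0.000916) and at the high dose (0.0216). It also passed Homer1 probe 1 (0.0218) and Nptx2 probe 1 (0.0361) over both doses, and Homer1 probe 2 at the high dose (0.0228). Between regions it passed Arc (0.0386) and Nptx2 probe 1 (0.0171). It ended no other call of a member.

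Sik1 kept its direction in 19 of 19 settings over both doses, with 10 of them short of the threshold, and Homer1 probe 2 in 18 of 18, with 7 short of it. Directions turned for small ratios. Arc over both doses was 0.011 without the midbrain, 0.027 without the ventral striatum, 0.00051 and 0.021 within days 1 and 3, and -0.017 to 0.0034 without a replicate. Nptx2 probe 1 within day 3 was 0.048 over both doses, 0.055 at the high dose and 0.040 at the low dose, and high minus low it was 0.012 without the midbrain, 0.0045 within day 1 and 0.015 within day 3. Nptx2 probe 2 over both doses was 0.028 within day 3 and -0.18 to 0.12 without a replicate; at the high dose 0.0084 within day 1 and -0.25 to 0.20; at the low dose 0.065 within day 3 and -0.34 to 0.27; and high minus low -0.011 when the ventral striatum was left out, -0.018 without the cortex, -0.025 and -0.075 within days 2 and 3, and -0.29 to 0.31 without a replicate. Homer1 probe 1 was 0.0073 at the low dose within day 3, and high minus low -0.088 to 0.0059 without a replicate, where Homer1 probe 2 ran from -0.088 to 0.25 and Ptgs2 probe 1 from -0.15 to 0.060. Signal over background limits the dim probes, Npas4 and Ptgs2 probe 2.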
